A study of Mus musculus with 20 samples.

Results

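The 49 genes described here code for proteins that sense damaged DNA, pass the signal on to the cell cycle or repair the lesion. They were listed by gene symbol from the known repair pathways, and each was matched to its row of the count table by Ensembl identifier. All 49 were found among the 55487 genes of the table, and all 49 were among the 12799 genes with enough reads to be tested. By role, 8 belong to homologous recombination, 3 are helicases of the RecQ family or the nuclease Exo1, 12 sense damage or signal to the checkpoints, 7 belong to the Fanconi anaemia pathway with Rad18, 3 to mismatch repair, 5 to non-homologous end joining, 6 to base excision and single-strand break repair and 5 to nucleotide excision repair.

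RNA was sequenced from 20 cultures of BV-2, an immortalised microglial cell line of C57BL/6 mouse origin and wild-type genotype, in 4 groups of 5 cultures. Young BV-2 microglia (the control cells) were cells of low passage, and aged BV-2 microglia had been kept in long-term cultivation, frozen and thawed alongside the young ones. Each age was left untreated or exposed to 100 ng/ml lipopolysaccharide (LPS), the bacterial surface molecule that microglia recognise through Toll-like receptor signalling, for 6 hours. The design allowed 4 comparisons between groups and a test of whether the LPS response differed between the ages. All groups are thus the same dividing cell line, "aged" means time in culture and not the age of an animal, and the labels number the 5 cultures of each group as batches. The replicates are described as independent, but whether the aged ones came from separate long-term cultivations is not given in the sources used here, so p-values measure only the spread between these cultures.

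Cells carry separate machinery for each kind of DNA lesion. Damaged or mismatched bases are cut out and replaced by base excision, nucleotide excision and mismatch repair, whereas broken strands are either joined directly, which works throughout the cell cycle, or copied from the sister chromatid by homologous recombination, which needs a replicated genome. The kinases Atm and Atr report breaks and stalled replication forks to the effector kinases Chek2 and Chek1, which hold the cell cycle, and many genes of recombination, mismatch repair and the Fanconi pathway are transcribed most in S phase under E2F transcription factors.

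Promoter sequence is shown for the 5 members with the strongest LPS responses among those described culture by culture and listed in the promoter table, because these responses are the largest. For Atrip the response is that of its count, which cannot be assigned to Atrip alone. Each line holds the 150 bases before the transcription start from RefSeq on GRCm38.p6, read 5′ to 3′ on the strand of the gene in lower case, with capitals marking a CCAAT box on either strand. The Atrip promoter is chr9:109074125-109074274 on the minus strand, that of Brca1 is chr11:101551956-101552105 on the minus strand, that of Msh6 is chr17:87974900-87975049 on the plus strand, that of Ung is chr5:114130285-114130434 on the plus strand and that of Rad51c is chr11:87404955-87405104 on the minus strand.
Atrip: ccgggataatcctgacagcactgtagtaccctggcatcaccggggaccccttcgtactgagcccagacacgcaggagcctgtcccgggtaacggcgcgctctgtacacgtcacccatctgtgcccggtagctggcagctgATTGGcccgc
Brca1: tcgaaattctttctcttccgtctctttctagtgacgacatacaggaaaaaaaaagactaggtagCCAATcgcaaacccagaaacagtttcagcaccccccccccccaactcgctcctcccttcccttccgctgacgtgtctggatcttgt
Msh6: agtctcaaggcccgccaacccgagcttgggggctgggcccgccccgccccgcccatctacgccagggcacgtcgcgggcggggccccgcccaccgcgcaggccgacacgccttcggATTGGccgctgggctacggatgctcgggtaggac
Ung: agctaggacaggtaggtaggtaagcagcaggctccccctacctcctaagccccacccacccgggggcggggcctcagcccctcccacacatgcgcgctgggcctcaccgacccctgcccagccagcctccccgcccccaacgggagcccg
Rad51c: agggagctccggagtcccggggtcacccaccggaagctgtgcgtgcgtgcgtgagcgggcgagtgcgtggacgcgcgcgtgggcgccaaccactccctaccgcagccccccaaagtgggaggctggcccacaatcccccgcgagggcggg

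The RefSeq table held a promoter of 300 bases, 250 before and 50 after the start, for 39 of the 49 members. An E2F motif, searched on both strands as TTTCCCGC, TTTCGCGC, TTTGGCGC or TTTGCCGC, was present in 8 of the 39 (20.5%), against 2.26% of all 32851 promoters in the table and 4.14% of the 11528 promoters of tested genes. These 8 are shown as 30 bases around the match, because all 8 fell with LPS in young cells, and they were picked out after the counts had been seen. Of all 39 members with a promoter, 30 fell there, so that a fall was common with or without the motif. Capitals mark the motif, which lies on the opposite strand where it reads GCGGGAAA or GCGCGAAA.
Bard1 (chr1:71103163-71103192, minus strand): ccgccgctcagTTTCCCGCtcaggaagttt
Brca2 (chr5:150522442-150522471, plus strand): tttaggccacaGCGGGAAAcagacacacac
Chek2 (chr5:110839820-110839849, plus strand): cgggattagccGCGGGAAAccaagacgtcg
Mdc1 (chr17:35841471-35841500, plus strand): tcttcagcctgTTTCCCGCcggtagccgca
Msh3 (chr13:92355183-92355212, minus strand): cgtcaagtttgGCGCGAAAtcgcagccctg
Msh6 (chr17:87975054-87975083, plus strand): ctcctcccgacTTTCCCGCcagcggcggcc
Rad51c (chr11:87404941-87404970, minus strand): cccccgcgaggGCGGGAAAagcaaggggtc
Xrcc6 (chr15:82016312-82016341, plus strand): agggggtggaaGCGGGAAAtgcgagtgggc

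Msh3 held a second, overlapping match on the other strand. The median log2 fold change with LPS in young cells was −1.25 for the 8 members with an E2F match and −0.51 for the members whose promoter held none, and in aged cells the medians were −0.52 and −0.34. With only the bases before the start, 6 members held a match, without Msh6 and Rad51c. The medians were then −0.96 and −0.52 in young and −0.50 and −0.35 in aged cells. The CCAAT box was found in 23 of the 39 member promoters (59.0%), against 37.4% of all promoters in the table and 38.1% of those of tested genes. The cell cycle homology region TTTGAA was found in 1 member promoter (2.56%), against 17.9% and 12.2%. The cAMP response element TGACGTCA was found in 1 (2.56%), which is above the 1.79% of all promoters and below the 3.17% of those of tested genes. The ETS site CCGGAAGT was found in 4 (10.3%), against 3.89% and 8.83%. A match describes letters in this window and is not a measured binding site.

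Library totals ranged from 11371508 to 16829292 counted reads, and the lowest count of any member in any library was 20, for Ddb2, so that counting error was small for nearly all members. The microglial and macrophage markers Csf1r (548 to 1010 CPM, counts-per-million of the library) and Cd68 (813 to 1340 CPM) were abundant in every culture, whereas Cx3cr1 and P2ry12, markers of resting brain microglia, reached no more than 1.84 and 1.99 CPM. Tmem119, also a microglial marker, was detected in every library at 1.51 to 25.1 CPM, and Aif1 at 3.35 to 18 CPM. The other listed markers, Itgam, Tyrobp, Ptprc and Spi1, held 35.8 to 193, 191 to 468, 168 to 326 and 241 to 625 CPM. Among 12 markers of neurons, astrocytes, oligodendrocytes, endothelium and pericytes, Syt1, Aqp4, Mog and Cldn5 were at 0 in all 20 libraries and no other exceeded 1.54 CPM.

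Expression per length spanned a ratio of 220.2 between the members. Apex1, the endonuclease that cuts beside a missing base, was the most abundant member with a level of 219 CPM per kilobase of exon, followed by Parp1, the sensor of single-strand breaks, with 91.4. Msh6, a mismatch-recognition subunit, held 27.6 and Mdc1, the scaffold that binds marked chromatin beside breaks, 24.0. Only 8 members exceeded 10 CPM per kilobase, the median was 5.60, and Rad51c, a recombination factor, was the lowest with 0.995.

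Untreated aged and young BV-2 microglia differed little in these genes. Of the 49 members 1 was higher and 0 were lower in aged cells by edgeR's quasi-likelihood test (adjusted p below 0.05), where 3.71% of all tested genes were higher and 7.81% lower. At an unadjusted p below 0.05 there were 3 higher and 3 lower members, where 3301 of all 12799 tested genes passed in either direction. DESeq2 also called 1 member higher and 0 lower, where it called 1737 of 13739 genes in either direction. The median log2 fold change of the members was −0.03, that of all tested genes −0.01, and the largest difference in absolute size was 0.22, for Brca1. The 95% intervals of the 49 log2 differences lay between −0.44 and 0.49, so that no interval reached beyond these values.

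The member that was higher was Apex1. It measured 322, 326, 322, 326 and 335 CPM in the untreated young cultures and 402, 370.0, 325, 350.0 and 371 CPM in the untreated aged ones, a log2 fold change of 0.16 ± 0.05 (SE) with an edgeR adjusted p of 0.0396. The groups overlapped, since 1 aged culture lay within the young range, and the call was lost when replicate 1, 2, 4 or 5 was left out in turn. Prkdc, the catalytic subunit of the DNA-dependent protein kinase of end joining, had a log2 difference of −0.20 ± 0.07 with an edgeR adjusted p of 0.0676, which became 0.00834 with the batch number as a replicate block. Brca1, the recombination factor and ubiquitin ligase, differed by −0.22 ± 0.08 with an edgeR adjusted p of 0.0914.

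LPS lowered most of these genes in both ages. In young cells 38 of the 49 members fell and 6 rose (edgeR adjusted p below 0.05), where 33.5% of all tested genes fell and 31.2% rose. In aged cells 35 fell and 8 rose, where 26.9% of all tested genes fell and 27.5% rose. The median log2 fold change of the members was −0.59 in young and −0.35 in aged cells, whereas the medians of all tested genes were −0.01 and 0.00051. A fall of at least 1 on the log2 scale was reached by 16 members in young cells and by 1, Ddb2, in aged cells. In these bulk cultures fewer cells in a cycle phase and less RNA per cell cannot be told apart.

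The direction was the same within every batch: the median change of the members lay between −0.74 and −0.55 over the 5 young batches and between −0.40 and −0.25 over the 5 aged ones. The split of the calls depended on the scaling, since the TMM normalisation factors were 0.891 to 0.931 in the young LPS libraries and 1.04 to 1.08 in the untreated ones. With library sizes alone the median of all tested genes moved by −0.22 in young and −0.16 in aged cells, and the members split into 1 higher and 40 lower in young and 3 higher and 39 lower in aged cells. Relative to all genes the member medians were then −0.58 and −0.35.

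**Figure D1:**
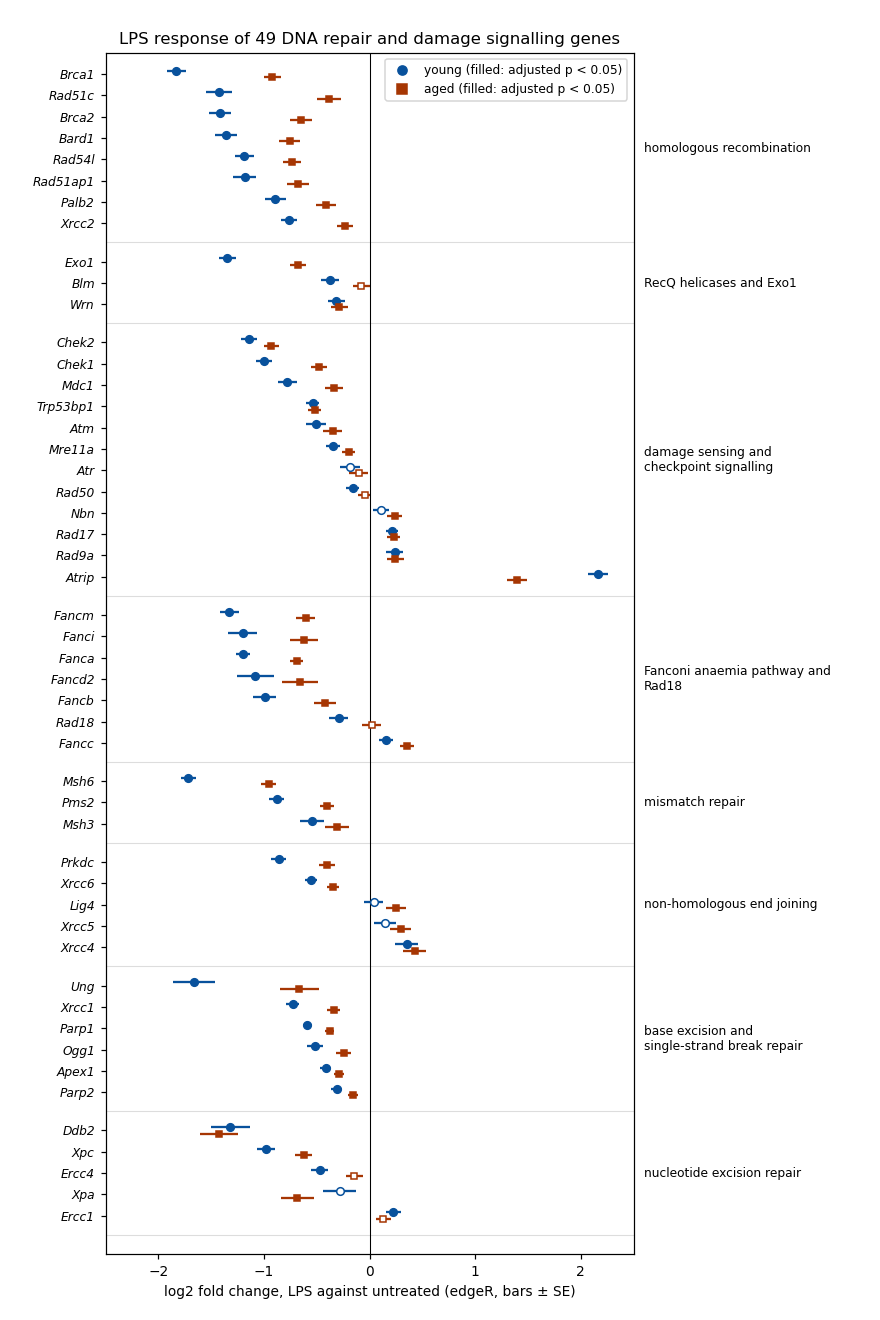
Log2 fold change with LPS (x axis) of the 49 genes, grouped by repair role and ordered by the change in young cells, for young (circles) and aged (squares) BV-2 microglia, with bars of ± 1 SE from edgeR and filled symbols at an adjusted p below 0.05. The 8 genes of homologous recombination and the 6 of base excision repair lie left of 0 in both ages, and Atrip stands alone on the right at 2.16 and 1.39.

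Homologous recombination fell as a group: all 8 members were lower after LPS in young cells and all 8 in aged cells, against 33.5% and 26.9% of all tested genes. Brca1 measured 83.1, 93.6, 88.6, 87.0 and 87.5 CPM in the untreated young cultures and 30.4, 21.1, 23.9, 24.0 and 24.8 CPM after LPS. In aged cells it measured 74.5, 65.7, 89.4, 70.3 and 78.8 CPM untreated and 35.0, 39.5, 41.0, 39.2 and 45.5 CPM after LPS. The LPS groups lay below the untreated groups without overlap at both ages, and every aged LPS culture lay above every young LPS culture. Brca1 was thus 3.55-fold lower with LPS in young cells (log2 −1.83 ± 0.09, edgeR adjusted p = 3.67e-14) and 1.89-fold lower in aged cells (−0.92 ± 0.08, edgeR adjusted p = 4.29e-09).

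Rad51c, which acts in strand exchange, showed the largest gap between the ages. Its levels were 5.79, 6.46, 5.74, 5.60 and 5.73 CPM in untreated young cultures and 2.77, 2.32, 2.00, 1.94 and 1.99 CPM after LPS. In aged cultures they were 4.79, 5.32, 4.40, 5.33 and 5.66 CPM untreated and 3.86, 3.88, 3.24, 4.65 and 3.91 CPM after LPS. The young groups were fully separated, while 1 aged LPS culture exceeded the lowest untreated aged culture. The fall of Rad51c was 1.42 ± 0.12 on the log2 scale in young cells and 0.38 ± 0.11 in aged cells.

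The other 6 recombination genes followed the same order. Brca2, a mediator of strand exchange, fell by 1.42 on the log2 scale in young and by 0.65 in aged cells. Bard1, the partner of Brca1, fell by 1.36 and 0.76, and Palb2, which bridges Brca1 and Brca2, by 0.89 and 0.41. Rad51ap1, an accessory factor of strand exchange, fell by 1.18 and 0.68. Rad54l, a motor protein that acts on chromatin during strand exchange, fell by 1.19 and 0.74, and Xrcc2, a further recombination factor, by 0.76 and 0.23. In all 8 genes of the group the fall was smaller in aged cells.

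The nuclease Exo1, which resects DNA ends and excises mismatched strands, measured 66.4, 77.7, 69.1, 67.9 and 72.4 CPM in untreated young cultures and 32.0, 25.0, 26.1, 26.6 and 29.6 CPM after LPS. The aged cultures held 78.0, 76.5, 82.5, 72.5 and 84.4 CPM untreated and 39.7, 51.5, 50.2, 54.0 and 50.9 CPM after LPS. LPS and untreated cultures were separated at both ages, and the aged LPS cultures lay above all young LPS cultures. The fall was 1.35 ± 0.08 on the log2 scale in young and 0.68 ± 0.08 in aged cells. The RecQ helicases, which unwind recombination intermediates, moved less: Blm fell by 0.38 in young cells and had a log2 change of −0.08 (edgeR adjusted p = 0.424) in aged cells, and Wrn fell by 0.31 and 0.29.

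In the Fanconi anaemia pathway, which unhooks crosslinks between DNA strands, 6 of 7 members fell and Fancc rose in young cells, and 5 fell and Fancc rose in aged cells. The shares of all tested genes that fell were 33.5% in young and 26.9% in aged cells. Fanca, a subunit of the core complex, measured 72.4, 73.5, 75.6, 77.6 and 69.8 CPM in untreated young cultures and 33.7, 29.1, 31.7, 37.3 and 29.5 CPM after LPS. The aged values were 81.0, 76.2, 81.9, 86.6 and 79.2 CPM untreated and 47.5, 53.9, 52.6, 52.2 and 44.7 CPM after LPS. Again the LPS groups were separated from the untreated groups and from each other, with falls of 1.20 ± 0.07 and 0.69 ± 0.06 on the log2 scale.

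Fancm, the DNA translocase that anchors the core complex, fell by 1.33 in young and 0.61 in aged cells, and Fancb, a further core subunit, fell by 0.99 and 0.42. Fanci and Fancd2, the pair that the core complex marks with ubiquitin, fell by 1.20 and 1.08 in young and by 0.62 and 0.66 in aged cells. Rad18, the ubiquitin ligase that marks the sliding clamp at stalled forks, fell by 0.29 in young cells, and its log2 change in aged cells was 0.02 (edgeR adjusted p = 0.883). Fancc, another core subunit, rose by 0.16 and 0.35, but with library sizes alone its value in young cells was −0.06.

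Mismatch repair fell throughout, with 3 of 3 members lower at both ages, where 33.5% of all tested genes fell in young and 26.9% in aged cells. Msh6, which recognises single mispairs, measured 156, 173, 164, 168 and 187 CPM in untreated young cultures and 49.9, 48.2, 45.3, 55.4 and 59.1 CPM after LPS. In aged cultures it measured 166, 163, 166, 142 and 167 CPM untreated and 74.5, 91.8, 81.1, 79.7 and 87.7 CPM after LPS. No LPS culture reached an untreated one, and every aged LPS culture exceeded every young LPS culture. Msh6 was 3.29-fold lower with LPS in young and 1.94-fold lower in aged cells (log2 −1.72 ± 0.07 and −0.96 ± 0.07, edgeR adjusted p = 4.00e-15 and 1.14e-10). Pms2, a subunit of the nicking endonuclease, fell by 0.88 and 0.41, and Msh3, which recognises small loops, by 0.55 and 0.30.

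Base excision and single-strand break repair also fell completely, 6 of 6 members at both ages, against 33.5% of all tested genes in young and 26.9% in aged cells. Ung, the glycosylase that removes uracil from DNA, measured 35.5, 48.9, 34.7, 44.5 and 56.3 CPM in untreated young cultures and 6.62, 12.6, 11.6, 16.4 and 21.4 CPM after LPS. In aged cells the values were 55.9, 46.6, 48.8, 39.6 and 51.6 CPM untreated and 32.8, 28.3, 28.1, 24.6 and 38.8 CPM after LPS. The young LPS cultures were the lowest of all, without overlap with any other group, although their own spread was wide, 13.7 ± 5.55 CPM (SD, n = 5). The fall was 1.66 ± 0.20 on the log2 scale in young and 0.67 ± 0.18 in aged cells.

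The other 5 members of the group fell by less than Ung. Apex1 measured 244, 246, 236, 234 and 260.0 CPM in young and 312, 306, 278, 295 and 293 CPM in aged LPS cultures, falls of 0.42 ± 0.05 and 0.29 ± 0.05 on the log2 scale that left no overlap with the untreated cultures. Parp1 fell by 0.59 in young and 0.38 in aged cells, and Parp2, the related polymerase, by 0.31 and 0.16. Xrcc1, the scaffold on which single-strand breaks are sealed, fell by 0.73 and 0.34. Ogg1, the glycosylase for oxidised guanine, fell by 0.52 and 0.25.

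Damage sensing and checkpoint signalling was mixed, with 7 of 12 members lower and 3 higher in young cells and 6 lower and 4 higher in aged cells. For all tested genes the shares were 33.5% lower and 31.2% higher in young, and 26.9% lower and 27.5% higher in aged cells. Both effector kinases fell: Chek1, which acts below Atr, fell by 1.00 in young and 0.48 in aged cells, and Chek2, which acts below Atm, fell by 1.14 and 0.93. The kinase Atm fell by 0.51 and 0.35, whereas Atr had log2 changes of −0.19 (edgeR adjusted p = 0.0859) and −0.10 (edgeR adjusted p = 0.364). The scaffolds at breaks fell as well, Mdc1 by 0.78 and 0.34 and Trp53bp1, which favours end joining, by 0.54 and 0.52.

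The 3 members of the complex that holds broken ends moved apart. The nuclease Mre11a fell by 0.34 in young and 0.20 in aged cells, and Rad50, its tether, fell by 0.16 in young cells with a log2 change of −0.05 (edgeR adjusted p = 0.563) in aged cells. Nbn, the subunit that recruits Atm, had a log2 change of 0.11 (edgeR adjusted p = 0.199) in young cells and rose by 0.24 in aged cells. Rad9a, a subunit of the checkpoint clamp, rose by 0.24 in both ages. Rad17, which loads that clamp, rose by 0.21 and 0.23. With library sizes alone these rises were not called, and that of Rad17 in young cells was −0.01.

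Non-homologous end joining was mixed too, with 2 of 5 members lower and 1 higher in young cells and 2 lower and 3 higher in aged cells. Among all tested genes 33.5% fell and 31.2% rose in young cells, and 26.9% fell and 27.5% rose in aged cells. The young counts were near these shares, and no trait of the pathway is read from 5 genes. Prkdc fell by 0.86 on the log2 scale in young and 0.40 in aged cells. Xrcc6, a subunit of the Ku ring that clasps broken ends, fell by 0.56 and 0.35, whereas Xrcc5, the other Ku subunit, had a log2 change of 0.15 (edgeR adjusted p = 0.211) in young cells and rose by 0.30 in aged cells. Lig4, the ligase that seals the ends, had a log2 change of 0.04 (edgeR adjusted p = 0.738) in young cells and rose by 0.25 in aged cells. With library sizes alone the rises of Xrcc5 and Lig4 in aged cells were not called.

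Xrcc4, the partner of Lig4, measured 8.14, 8.05, 9.12, 8.24 and 9.99 CPM in untreated young cultures and 10.6, 12.4, 11.4, 9.10 and 12.1 CPM after LPS. Aged cultures held 5.89, 9.35, 8.51, 8.57 and 8.19 CPM untreated and 11.2, 11.9, 10.3, 9.91 and 11.3 CPM after LPS. The groups overlapped in young cells and not in aged cells, with rises of 0.35 ± 0.11 and 0.43 ± 0.11 on the log2 scale. Library sizes alone gave 0.13 (edgeR adjusted p = 0.303) in young and 0.27 (edgeR adjusted p = 0.0411) in aged cells.

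Nucleotide excision repair, the removal of bulky and ultraviolet lesions, held 3 members of 5 that fell in each age, where 33.5% of all tested genes fell in young and 26.9% in aged cells. Ddb2, the subunit that finds ultraviolet photoproducts, measured 5.93, 5.88, 7.55, 5.08 and 4.79 CPM in untreated young cultures and 3.26, 1.74, 2.07, 3.28 and 1.47 CPM after LPS. The aged cultures held 6.79, 4.84, 6.74, 6.76 and 6.06 CPM untreated and 2.25, 2.64, 2.14, 2.40 and 2.24 CPM after LPS. Here the LPS groups of the 2 ages overlapped fully, and the fall was 1.32 ± 0.18 on the log2 scale in young and 1.42 ± 0.18 in aged cells.

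Xpc, the sensor of distorted helices, fell by 0.98 and 0.62, and Ercc4, the catalytic subunit of the endonuclease that cuts on the upstream side of a lesion, fell by 0.47 in young cells with a log2 change of −0.14 (edgeR adjusted p = 0.14) in aged cells. Xpa, the damage verifier, had a log2 change of −0.28 ± 0.16 (edgeR adjusted p = 0.123) in young cells and fell by 0.68 ± 0.16 in aged cells. Ercc1, the partner of Ercc4, measured 13.9, 13.3, 13.9, 13.1 and 12.6 CPM in untreated young cultures and 16.9, 14.8, 14.4, 15.8 and 16.3 CPM after LPS, a rise of 0.22 ± 0.07 without overlap. Aged cultures held 12.1, 12.4, 13.0, 12.1 and 11.5 CPM untreated and 13.2, 12.0, 15.0, 12.7 and 13.8 CPM after LPS. These overlapped, with a log2 change of 0.13 (edgeR adjusted p = 0.13). With library sizes alone the values of Ercc1 were 0.0044 in young and −0.03 in aged cells, neither of them called.

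**Figure D2:**
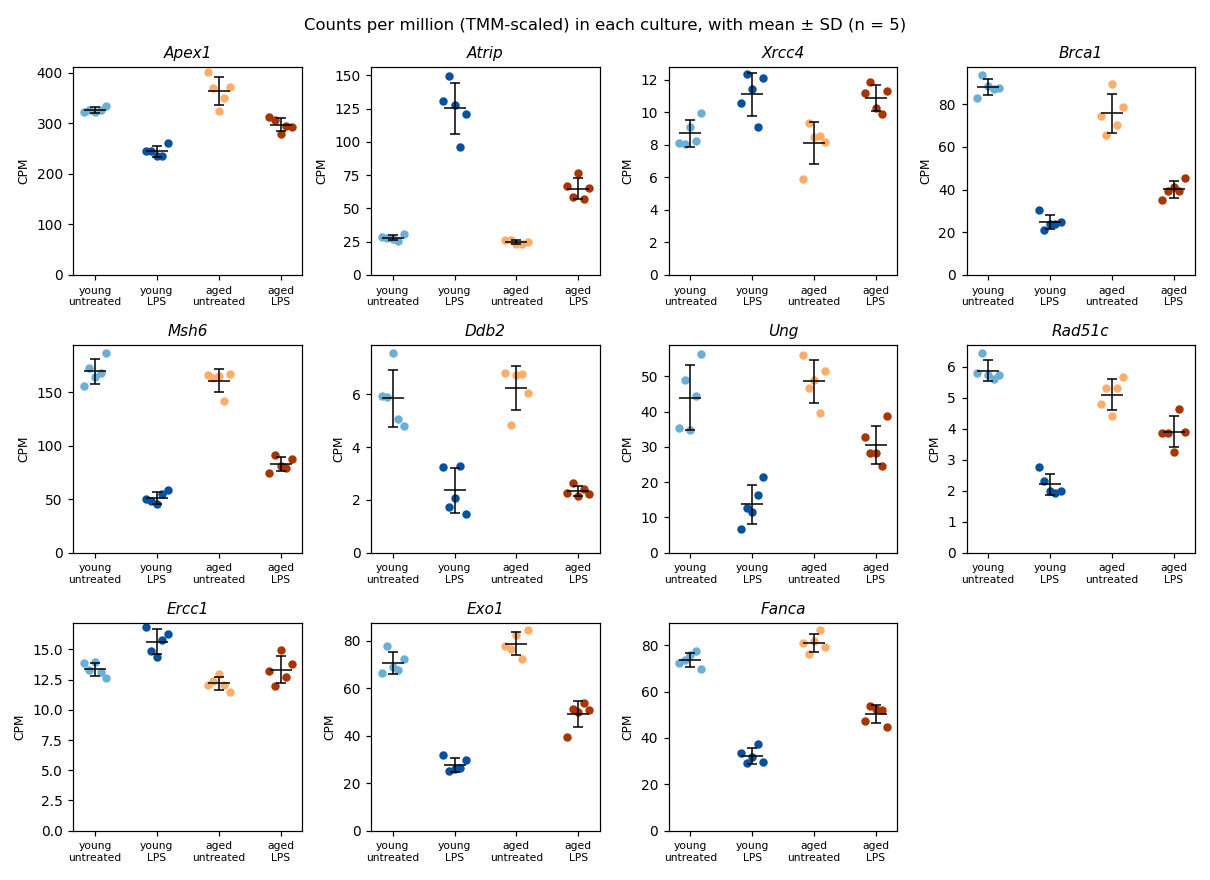
CPM (y axis, from 0, TMM-scaled) of the 11 genes given culture by culture, with 1 point per culture in each of the 4 groups and black bars for the mean ± SD (n = 5). Brca1, Msh6, Exo1, Fanca, Ung and Rad51c fall to their lowest level in the young LPS cultures and to an intermediate level in the aged LPS cultures, whereas Ddb2 falls to the same range in both ages and the count of Atrip rises.

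Atrip, the partner through which Atr is recruited to single-stranded DNA, carried the largest change of any member. It measured 28.3, 27.5, 27.3, 25.6 and 30.8 CPM in untreated young cultures and 131, 150, 128, 96.4 and 121 CPM after LPS. In aged cultures it measured 26.3, 25.8, 23.5, 23.0 and 24.8 CPM untreated and 66.6, 58.3, 76.9, 57.2 and 65.0 CPM after LPS. The counts were thus higher with LPS in all 10 treated cultures, by 2.16 ± 0.10 on the log2 scale in young and 1.39 ± 0.10 in aged cells, and the aged LPS cultures lay below the young ones.

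These counts cannot be assigned to Atrip alone. On GRCm38 Atrip covers chr9:109057933-109074124 on the minus strand, and the whole of Trex1, the exonuclease that degrades DNA in the cytosol, lies inside its exons at the 3′ end, on the same strand, at chr9:109057933-109059734, with 1147 bases of exon shared. Reads counted for Trex1 amounted to 31.5% to 42.3% of the Atrip count in untreated young cultures and to 82.1% to 86.2% after LPS. In aged cultures the shares were 28.1% to 35.6% untreated and 64.1% to 78.5% after LPS. The count of Trex1 rose by 3.40 ± 0.14 on the log2 scale in young and 2.58 ± 0.15 in aged cells (edgeR adjusted p = 2.77e-15 and 8.90e-13). Since all its exon bases are shared, this count cannot be assigned to Trex1 alone either.

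When the Trex1 count of each library was subtracted from its Atrip count, which assumes that every read of Trex1 was also counted for Atrip, the remainder averaged 18.8 CPM of the unscaled library in untreated young cultures, 16.8 in young LPS, 18.3 in untreated aged and 18.0 in aged LPS cultures. The log2 change with LPS was then 0.06 ± 0.08 in young (edgeR adjusted p = 0.548) and 0.14 ± 0.08 in aged cells (edgeR adjusted p = 0.16), and the 4 groups overlapped. This subtraction was added after the data had been seen. With it, the members called were 5 higher and 38 lower in young and 7 higher and 35 lower in aged cells.

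**Figure D3:**
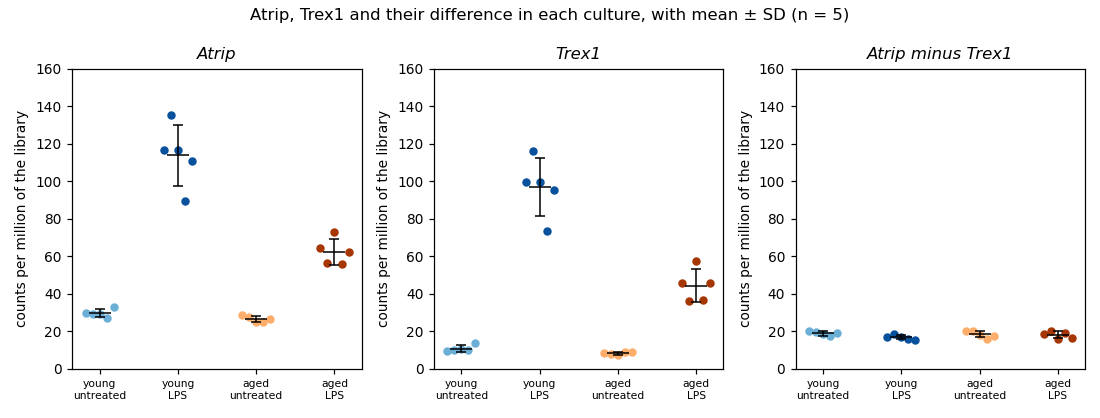
CPM of the unscaled library (y axis, from 0) of Atrip, of Trex1 and of the difference of their counts, with 1 point per culture in each of the 4 groups and black bars for the mean ± SD (n = 5). The counts of Atrip and Trex1 rise with LPS and more so in young cells, while the difference stays between 15.5 and 20.3 in all 20 cultures.

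Exons of 25 of the 49 members overlap those of another counted gene, and for 18 of them that gene holds at least 10% as many reads as the member. Among the partners on the same strand, Trex1 held 68.6% of the count of Atrip and Gm42421 held 8.79% of the count of Pms2, and the others held less than 1% of their member's count. Antisense features inside exons of Palb2, Fancc and Fancm held 0, 6 and 8 reads over all 20 libraries where the members held 4178, 6204 and 9171, so that the counts kept the strands apart there. Ddb2 and Xpa, both low, lie opposite the far more abundant genes Acp2 and Ncbp1, with 47357 and 38424 reads against 1266 and 787.

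The falls with LPS were smaller in aged than in young cells for many of the members. The difference of the responses, tested as an interaction in edgeR, was called positive for 20 members and negative for 1, where 4.12% of all tested genes were called positive and 2.27% negative. Its median over the members was 0.30 on the log2 scale, against 0.02 over all tested genes, and 45 of the 49 members had a positive value. Of the 38 members that fell in young cells 34 also fell in aged cells, 37 had a less negative change there, and none was called in the opposite direction. Their median change was −0.89 in young and −0.41 in aged cells.

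Smaller changes in aged cells were not limited to these genes. Among all 4282 genes that fell in young cells 89.8% had a less negative change in aged cells, against 97.4% of the 38 members, and the medians of all fallen genes were −0.58 in young and −0.37 in aged cells. Among all 3988 genes that rose in young cells 82.4% had a less positive change in aged cells. The difference was called positive for 12.0% of all fallen genes and for 52.6% of the fallen members. These shares start from genes selected in young cells, which favours smaller values in the other age. All 6 LPS response markers were lower in aged than in young LPS cultures (median log2 difference −2.02), while the median difference of their responses was 0.53.

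By role, the difference of the responses was called positive for all 8 genes of homologous recombination, against 4.12% of all tested genes. The largest were Rad51c with 1.04 ± 0.17 (edgeR adjusted p = 0.000742), Brca1 with 0.91 ± 0.12 (edgeR adjusted p = 0.000141) and Brca2 with 0.76 ± 0.15 (edgeR adjusted p = 0.00292). Exo1 differed by 0.67 ± 0.11, and Fancm, Fancb and Fanca by 0.72 ± 0.13, 0.57 ± 0.15 and 0.50 ± 0.09. Msh6 and Pms2 differed by 0.76 ± 0.10 and 0.48 ± 0.10, and Ung, Xrcc1 and Parp1 by 0.995 ± 0.27, 0.39 ± 0.09 and 0.21 ± 0.06. In signalling and end joining the difference was called positive for Chek1 (0.52 ± 0.11), Mdc1 (0.44 ± 0.13) and Prkdc (0.46 ± 0.10).

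No member of nucleotide excision repair was among them by edgeR. The difference was −0.10 ± 0.26 for Ddb2 (95% interval −0.61 to 0.41) and 0.02 ± 0.09 for Trp53bp1, whereas Chek2 differed by 0.21 ± 0.10 with an edgeR adjusted p of 0.265. The difference for Atrip was −0.77 ± 0.13, and it became 0.08 ± 0.12 after the Trex1 counts were subtracted. With the replicate block Ercc4 joined the called members (edgeR adjusted p = 0.0302) and Rad51ap1 left them (edgeR adjusted p = 0.0506).

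The number of called differences depended on single replicates. It was 8 without replicate 2 and 11 without replicate 4, in place of 21, and the count over all tested genes without replicate 2 was 189 in place of 818. The calls for Brca1, Rad51c, Exo1, Fanca, Fancm, Msh6 and Atrip were kept when each replicate was left out in turn. The member median of the difference was positive in each of the 5 batches, from 0.10 to 0.48. Over the members, 23 had a positive value in every batch and 1 a negative value in every batch. Among the called members, Bard1 (−0.27), Rad51ap1 (−0.23), Rad54l (−0.16) and Chek1 (−0.05) had a negative value in batch 1.

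**Figure D4:**
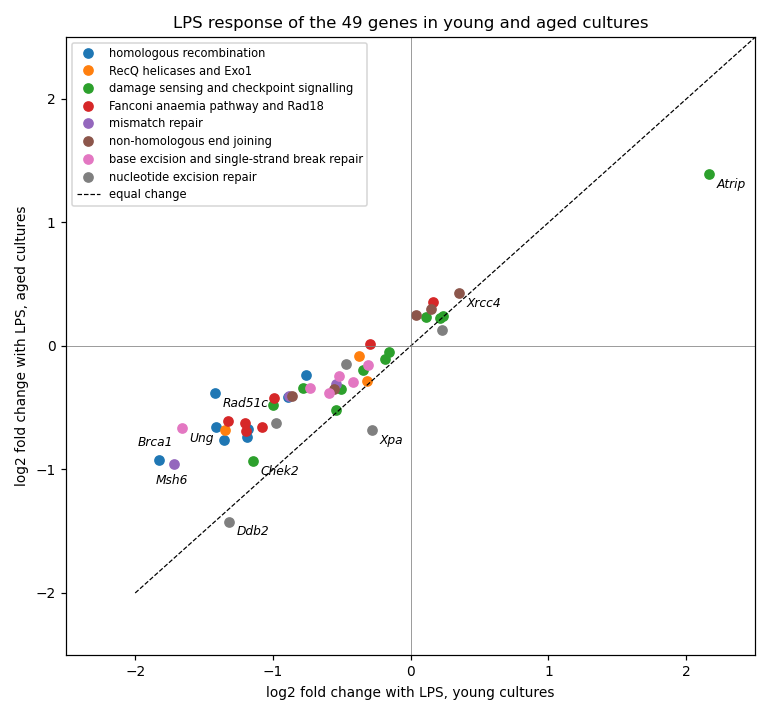
Log2 fold change with LPS in young (x axis) and aged (y axis) BV-2 microglia for each of the 49 genes, coloured by repair role, with a dashed line where both are equal. Most genes on the left lie above the line, Brca1 at −1.83 and −0.92 for example, while Ddb2 and Xpa lie below it and Atrip far to the right.

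After LPS, aged cells therefore held more of most members than young cells. Of the 49, 29 were higher and 2 lower in aged LPS than in young LPS cultures, where 14% of all tested genes were higher and 15% lower. All 29 had fallen with LPS in young cells, as had 38 of the 49 members. Both comparisons use the same young LPS cultures, so that low values there favour both calls. The median log2 difference was 0.28 for the members and 0.01 for all tested genes, and its values within the 5 batches ranged from 0.11 to 0.43. Ung stood highest with 1.14 ± 0.20 on the log2 scale (edgeR adjusted p = 0.000181), followed by Rad51c with 0.84 ± 0.13 and Exo1 with 0.82 ± 0.08.

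All 8 genes of homologous recombination and all 6 of base excision repair were higher in aged LPS cultures, together with 5 of 7 in the Fanconi pathway, 2 of 3 in mismatch repair, 2 of 5 in end joining and 3 of 12 in signalling. The share of all tested genes was 14%. The 2 lower members were Atrip at −0.95 ± 0.09 and Ercc1 at −0.23 ± 0.07 (edgeR adjusted p = 0.0187, and 0.0998 with library sizes alone), and for Atrip less Trex1 the value was 0.01 ± 0.08. With the replicate block Rad50 (edgeR adjusted p = 0.0479) and Xrcc5 (edgeR adjusted p = 0.00833) were also higher.

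S-phase genes moved beside the repair genes, and mitosis markers changed less. Of 16 S-phase and replication markers all 16 fell with LPS in young cells (median log2 −1.05) and 15 in aged cells (median −0.40), where 33.5% and 26.9% of all tested genes fell. The difference was called positive for 13, against 4.12% of all tested genes. Their mean log2 CPM was 7.38 ± 0.12 in untreated young, 6.35 ± 0.09 in young LPS, 7.37 ± 0.08 in untreated aged and 6.94 ± 0.09 in aged LPS cultures (SD, n = 5). Rrm2, the ribonucleotide reductase subunit of S phase, was 2.83-fold lower with LPS in young cells, and Ccne1, the cyclin of S-phase entry, fell by 1.47 in young and 0.86 in aged cells on the log2 scale. Of 10 mitosis markers 5 fell in young and 3 in aged cells, with medians of −0.26 and −0.11 and 0 differences called by edgeR (1 at an unadjusted p below 0.05). The count in aged cells was near the 26.9% of all tested genes that fell there. The part of cell cycle composition in the change of the repair genes was not tested.

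**Figure D5:**
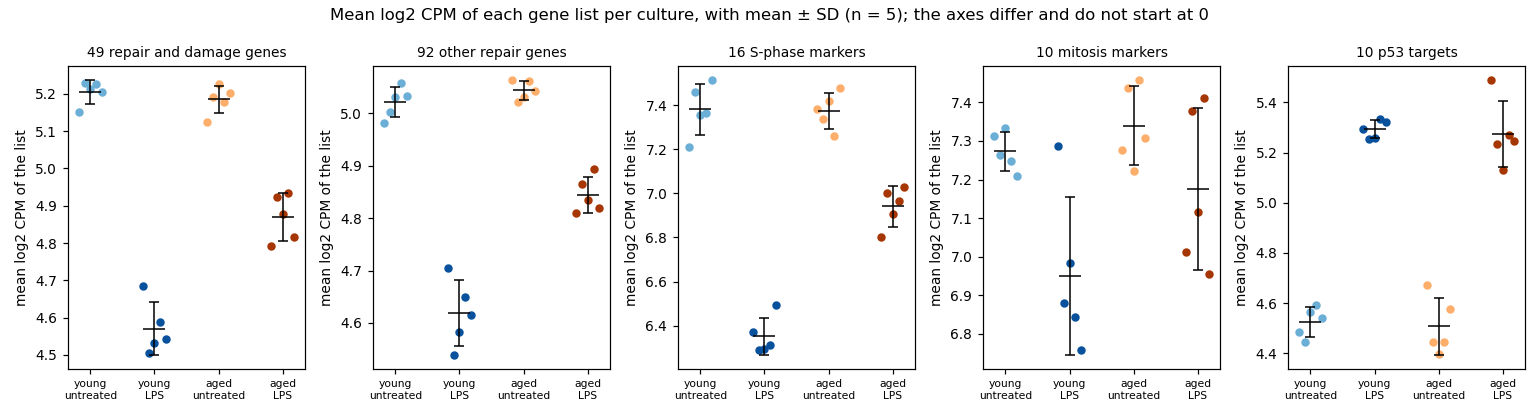
Mean log2 CPM (y axis, not starting at 0 and different between panels) of 5 gene lists, with 1 point per culture in each of the 4 groups and black bars for the mean ± SD (n = 5). The 49 repair and damage genes, the 92 other repair genes and the 16 S-phase markers share the order untreated, then aged LPS, then young LPS, while the p53 targets rise to a similar mean in both ages, 5.29 in young and 5.27 in aged cells.

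A further 92 repair genes outside the 49 showed the same direction with smaller changes. In young cells 56 fell and 12 rose with LPS, with a median of −0.41, where 33.5% of all tested genes fell and 31.2% rose. In aged cells 48 fell and 11 rose, with a median of −0.20, where 26.9% of all tested genes fell and 27.5% rose. Neil3, a glycosylase of dividing cells, fell by 2.13 on the log2 scale in young and 1.10 in aged cells. Dclre1c, the end-processing nuclease of end joining, rose by 1.49 and 0.98, and Rad23b, the partner of Xpc, by 0.54 and 0.40. After LPS 36 of the 92 were higher and 1, Dclre1c, lower in aged than in young cells, where 14% of all tested genes were higher and 15% lower. Clspn, which links Atr to Chek1, was higher by 0.89 and Xrcc3, a recombination factor, by 0.75.

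Targets of p53, the transcription factor activated by the damage kinases, were mixed, with more rises than falls after LPS. Of 10 tested targets 6 rose and 2 fell with LPS in young cells, with a median log2 change of 0.355. Of all tested genes 31.2% rose and 33.5% fell there. In aged cells 6 targets rose and 1 fell, with a median of 0.421, where 27.5% of all tested genes rose and 26.9% fell. Mdm2, the ubiquitin ligase for p53, rose by 2.26 and 2.24 on the log2 scale, and Cdkn1a, the cell cycle inhibitor, by 2.66 and 1.83. The difference of the responses was called only for Cdkn1a among the 10, at −0.83 ± 0.21 (edgeR adjusted p = 0.0162). Zmat3 and Ccng1, which fell by 0.29 and 0.20 in young cells, were higher in untreated aged than in untreated young cells by 0.27 and 0.20.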

How the data were processed

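RNA from 20 BV-2 cultures was made into stranded poly(A) libraries and sequenced as paired ends on an Illumina NextSeq. The authors aligned the reads to GRCm38 with STAR 2.6.1d and deposited whole-number counts per Ensembl gene from featureCounts 1.5.1, without normalization (versions from the submitters' processing notes). The settings for strand, overlapping genes and multiple alignments are not given in the sources used here. Groups came from the labels, and all 20 sample columns were used.

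edgeR 4.0.16 (limma 3.58.1, R 4.3.3) was run on all 20 libraries with group as the factor, TMM scaling and filterByExpr, which kept 12799 genes. P-values of its quasi-likelihood F-test were adjusted by Benjamini-Hochberg over all of them, and a call is an adjusted p below 0.05. CPM values are TMM-scaled, with a prior count of 2 for log2 values. The SE is the absolute log2 fold change divided by the square root of the F statistic. The 95% intervals use the normal multiple of this SE, which makes them somewhat narrow. Levels per length divide by merged exon length in the GENCODE annotation of GRCm38, and promoters are those of RefSeq on GRCm38.p6. The steps were tested on simulated counts.

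The members and lists were chosen with earlier results of these data known. Members given culture by culture were, per comparison, the 2 largest called rises and falls, plus for a role with none shown the most abundant member. Genes of other lists were named as the 2 largest called rises and falls in each list. Some results under this rule are not reported here. The replicate number is given as a batch in the labels and so pairs cultures across groups. After group means were removed, cultures sharing a number correlated with a mean of 0.146 over 30 pairs (−0.214 to 0.394), and 19 pairs were over 0.1. The values were 0.122 to 0.394 between untreated and LPS cultures of the same age, and −0.214 to 0.275 between cultures of different ages. Within groups, libraries differed beyond sampling noise (chi-square per degree of freedom 2.31 to 24.4 over 40 pairs), so none looked like a copy of another, and all were counted as separate. This check cannot show whether the cultures of a group are independent. Alternatives were DESeq2 1.42.0, a replicate block, DESeq2 size factors, library sizes alone, no filter, only the groups compared and each replicate left out.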

Additional observations from a re-analysis of the deposited data

Results flagged for a closer look

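Among the 44 sets of 5 cultures of the members given culture by culture, 3 held a culture far from the other 4, where chance alone gives about 1 in 20. Rad51c was 6.46 CPM in replicate 2 of the untreated young cultures, against 5.60 to 5.79 in the others. Exo1 was 39.7 CPM in replicate 1 of the aged LPS cultures, against 50.2 to 54.0. Msh6 was 142 CPM in replicate 4 of the untreated aged cultures, against 163 to 167.

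The LPS response differed between the ages by edgeR's interaction test for 21 members. On the log2 scale, aged minus young, the difference was 0.91 for Brca1, 0.76 for Brca2, 0.60 for Bard1, 0.48 for Palb2, 1.04 for Rad51c, 0.51 for Rad51ap1, 0.45 for Rad54l and 0.53 for Xrcc2. It was 0.67 for Exo1, 0.52 for Chek1, 0.44 for Mdc1, 0.50 for Fanca, 0.57 for Fancb and 0.72 for Fancm. Mismatch repair gave 0.76 for Msh6 and 0.48 for Pms2, end joining 0.46 for Prkdc, and base excision repair 0.39 for Xrcc1, 0.21 for Parp1 and 0.995 for Ung. For Atrip it was −0.77, and 0.08 once the reads of Trex1 were subtracted.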

How the results depend on the processing

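The total counts of calls with LPS, both directions together, stayed within 1.5 times under every alternative run at both ages, but with library sizes alone the members that rose were 1 in place of 6 in young and 3 in place of 8 in aged cells. Among the called results of single members, 1404 alternative values kept direction and call, 115 lost the call and 4 reversed. Named genes of the other lists are not in these counts. The reversals were Rad17 (−0.00953) and Fancc (−0.0616) in young LPS cells with library sizes alone, and Atrip less Trex1 in aged against young LPS cells (0.0134) and in the difference of the responses (0.0787). Library sizes alone also moved the member medians with LPS to −0.81 in young and −0.51 in aged cells, and raised the other repair genes called in aged against young LPS cells to 58. For aged against young untreated cells, members called were 2 with the replicate block and 0 without the filter, and 0 to 1 with a replicate left out. The other repair genes called there were 6 by DESeq2, 9 with the replicate block, 5 with DESeq2 size factors, 7 with library sizes alone and 5 with only the groups compared (1 to 3 with a replicate left out). The p53, S-phase and mitosis genes called there were 5, 5, 4, 4 and 5 in the same order and 1 without the filter (0 to 2 with a replicate left out). The replicate block changed no other call of a member than those given above. Leaving out a replicate gave 8 to 23 members, 9 to 28 other repair genes and 9 to 15 of the cell cycle and p53 genes with a called difference of the responses, the lowest each time without replicate 2, and fewer libraries were then fitted. Other causes were not tested.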
